A study of Mus musculus with 56 samples.

Results

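The genes described here are 9 markers of cholangiocytes, the epithelial cells that line the bile ducts, and of the ductal progenitor cells that resemble them: Krt7, Krt19, Epcam, Sox9, Cd24a, Tspan8, Spp1, Prom1 and Cftr. They were chosen by symbol, each had 1 row in the RNA-seq table, and they are 9 of its 21888 gene symbols. Their values were taken from all 14 livers of the table. FPKM, the unit of that table, is the number of sequenced fragments per kilobase of transcript per 1000000 fragments, so levels of different genes can be set side by side per length.

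In a healthy liver cholangiocytes are a small minority beside hepatocytes. In chronic liver injury, cells with ductal markers multiply around the portal tracts, which is known as a ductular reaction, and hepatocytes themselves can take on some of the same markers, Sox9 and Spp1 among them. miR-122, the most abundant microRNA of hepatocytes, is known to keep genes of the mature hepatocyte programme in place, and mice without it develop liver inflammation, fibrosis and tumours. None of the 9 markers belongs to ductal cells alone: Spp1 is also made by macrophages, Cd24a by blood cell precursors and B cells, Krt7 and Krt19 by mesothelium, and Tspan8 and Cftr by gut epithelium.

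All mice were of the 129Sv/J background and each library was 1 mouse. In 11 of them the sequence of the miR-122 hairpin was flanked by LoxP sites (floxed mice): 3 were uninjected (day 0), and 3 were taken 21 days, 3 45 days, 1 100 days and 1 200 days after an AAV8 vector carried Cre recombinase from the Ef1a promoter, which is not restricted to hepatocytes. No group received a vector without Cre, so the vector and the loss of miR-122 cannot be told apart within the floxed mice. The other 3 mice were germline miR-122 knockouts, which lacked the microRNA in every cell from conception. The livers of days 100 and 200 were treated as 1 group of 2 mice of unlike times. Age and sex are not in the labels. The floxed mice also had 11 small RNA libraries of the same days and replicate letters. The labels do not state that a shared letter is the same liver. In them miR-122 made up 59.2% to 73.3% of the microRNA reads at day 0, 8.22% to 13.2% at day 21 and 0.383% to 1.23% at day 45. It made up 4.46% at day 100 and 19.1% at day 200, so the share was higher again in both late libraries. Knockout livers had no small RNA library in the set used here.

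Several facts about the libraries bear on all results. The deposited FPKM steps allow between 23750000 and 30230000 fragments per knockout library and between 35230000 and 55960000 per floxed library, as an estimate, so the knockout values rest on fewer fragments. The hepatocyte genes Ttr and Hnf4a were read at high levels in all 14 livers (Ttr from 5211 to 9989 FPKM), but Alb is listed at 0 in every library and Serpina1a in 10 of 14, although each liver makes both. Genes of the Y chromosome were read in day 0 B, day 21 C, day 45 C and knockout C (51.1 to 66.8 FPKM summed over Ddx3y, Eif2s3y, Kdm5d and Uty) and in none of the other 10 livers above 0.061 FPKM, while Xist RNA had the opposite pattern. Both late livers were thus without Y-linked reads. Knockout C differed from the other knockouts in several of the markers below.

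The keratins Krt7 and Krt19 form the intermediate filaments of duct cells and are the classical markers of bile duct epithelium. Krt7 was at 1.54, 0.601 and 0.917 FPKM in the 3 day 0 livers and at 1.41, 0.842 and 0.930 at day 21. It was at 3.94, 11.6 and 7.91 at day 45, 8.52 at day 100, 11.6 at day 200, and 11.0, 13.7 and 3.30 in the knockouts. The day 21 livers lay within the range of day 0, and every later or knockout liver lay above both. Krt19 was at 2.19, 1.01 and 1.82 FPKM at day 0, 2.33, 1.64 and 1.83 at day 21, and 5.78, 17.5 and 12.3 at day 45. It reached 15.0 at day 100, 19.4 at day 200 and 23.7 and 25.4 in knockouts A and B, but only 3.35 in knockout C. Both keratins thus overlapped their day 0 range at day 21 and were above it in every later floxed liver.

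Epcam and Cd24a code for surface proteins that are used to sort ductal progenitor cells, Epcam being an adhesion molecule of epithelia and Cd24a a small glycosylated anchor protein. Epcam was at 0.963, 1.04 and 1.28 FPKM at day 0, 3.25, 3.71 and 4.65 at day 21, and 10.7, 36.4 and 20.5 at day 45. It was at 24.4 and 29.6 FPKM at days 100 and 200 and at 13.3, 19.3 and 10.1 in the knockouts. Unlike those of the keratins, the 3 groups from day 0 to day 45 did not overlap. Cd24a was at 2.50, 2.02 and 3.33 FPKM at day 0, 7.03, 7.14 and 14.0 at day 21, and 20.3, 59.6 and 35.6 at day 45. It was at 56.5 and 56.9 FPKM in the late livers and at 15.4, 22.0 and 17.1 in the knockouts. The knockout range of Cd24a overlapped that of day 45 only at its upper end.

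Tspan8, a tetraspanin of epithelial membranes, was at 1.65, 1.39 and 2.15 FPKM at day 0, 4.19, 5.10 and 7.05 at day 21, and 19.4, 74.4 and 38.3 at day 45. It was highest in the late livers, at 121.8 and 103.8 FPKM, and at 31.6, 48.9 and 18.0 in the knockouts. Spp1 codes for osteopontin, a secreted phosphoprotein, and was the most abundant of the 9 at every time. It was at 40.9, 45.2 and 54.6 FPKM at day 0, 129.3, 170.1 and 194.8 at day 21, and 382.6, 1259 and 654.5 at day 45. At 2866 FPKM on day 100 and 1854 on day 200, both late livers were above every other liver, and the knockouts were at 506.3, 731.6 and 532.9. By rank among all genes of a library, Spp1 stood between the 92.3rd and 94.3rd percentile at day 0 and above the 99.8th in the late livers.

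Prom1, also known as CD133, a pentaspan protein of membrane protrusions, was at 1.63, 0.449 and 1.48 FPKM at day 0, 2.72, 2.86 and 1.17 at day 21, and 7.50, 26.2 and 5.54 at day 45. It was at 34.9 and 20.8 FPKM in the late livers and at 19.9, 24.5 and 7.51 in the knockouts. The day 0 and day 21 groups overlapped, and in each group of 3 the lowest liver was the one with Y-linked reads. Sox9, the transcription factor of duct specification, was at 0.534, 1.03 and 0.546 FPKM at day 0, 0.985, 0.972 and 0.882 at day 21, and 1.82, 5.49 and 1.89 at day 45. It was at 5.57 and 4.81 FPKM in the late livers and at 2.22, 4.21 and 1.60 in the knockouts, so that it was the second lowest of the 9 by mean in every injected or knockout group. Cftr, the chloride channel of the apical duct membrane, was the lowest. It was at 0.0440, 0.0750 and 0.0310 FPKM at day 0, 0.175, 0.196 and 0.141 at day 21, and 0.395, 1.42 and 0.678 at day 45. It was at 1.16 and 1.18 FPKM in the late livers and at 0.234, 0.416 and 0.373 in the knockouts. The day 0 values of Cftr rest on an estimated 9.94 to 23.6 fragments each, and those of Sox9 on 111 to 205.

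**Figure D1:**
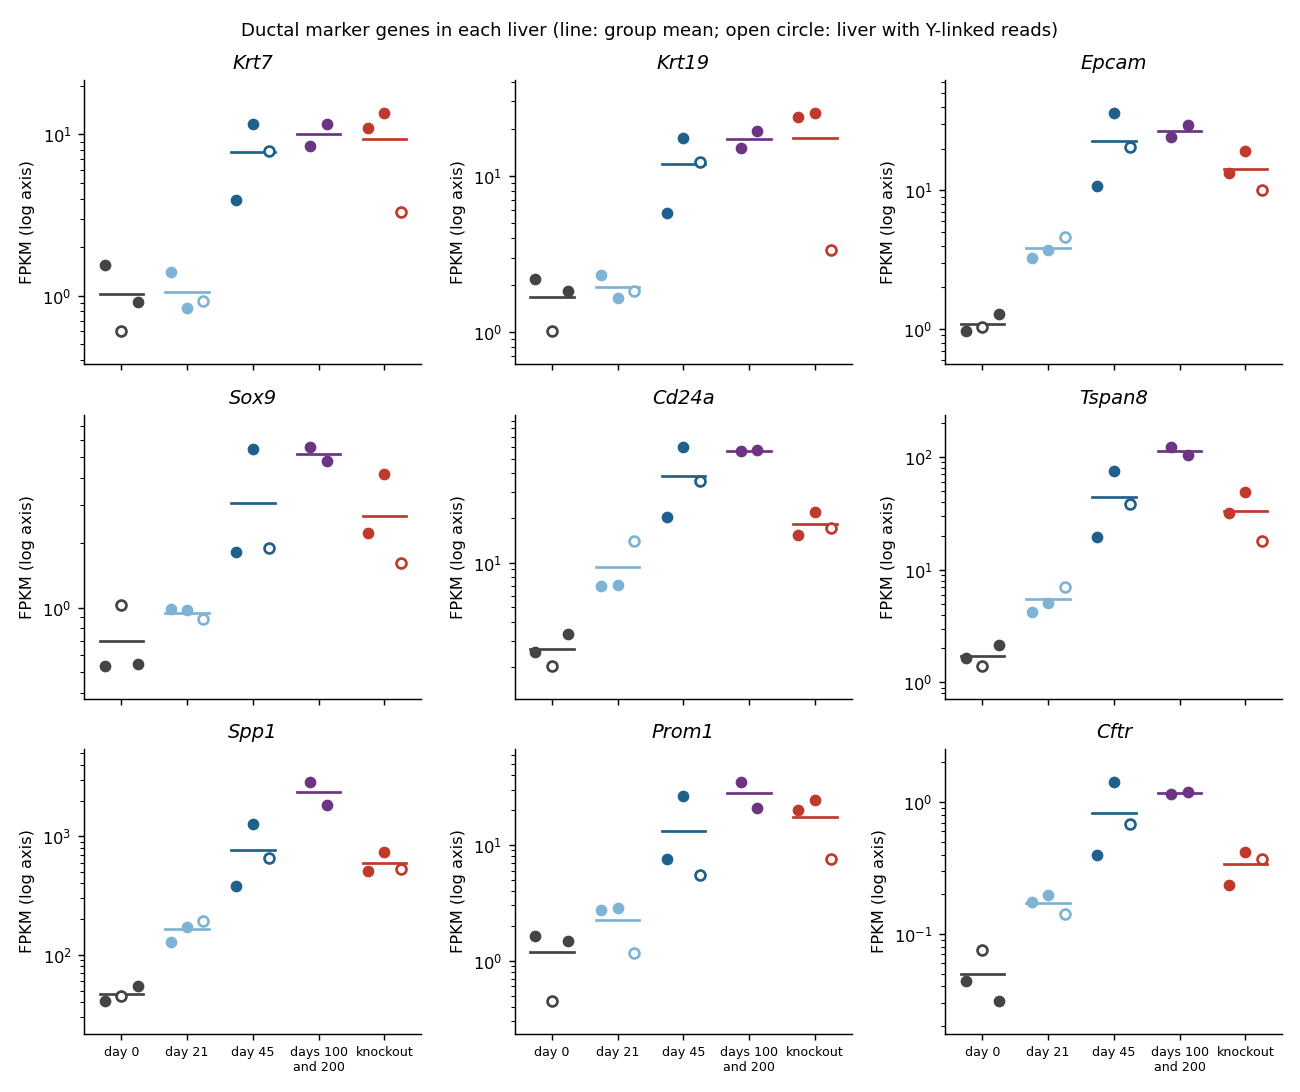
FPKM of each of the 9 genes (log axis) in each of the 14 livers by group, with the group mean as a line and the 4 livers with Y-linked reads as open circles. All 9 genes lie above the whole day 0 range at day 45, at days 100 and 200 and in the knockout, whereas Krt7, Krt19, Sox9 and Prom1 overlap between day 0 and day 21.

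Each gene was compared with limma on log2(FPKM + 0.1) in 1 fit of the 5 groups over the 14104 genes whose mean over the livers reached 0.1 FPKM, as all 9 markers did, with p-values adjusted by Benjamini-Hochberg over all 14104 genes and called under 0.05. In chronological order, the first question was which markers had already moved at day 21. Epcam, Cd24a, Tspan8 and Spp1 rose, 4 of the 9, where 8.47% of all tested genes were called higher. On the log2 scale Spp1 was higher by 1.80 ± 0.36 (SE, adjusted p = 0.00949), Cd24a by 1.75 ± 0.36 (adjusted p = 0.0109), Epcam by 1.73 ± 0.37 (adjusted p = 0.0124) and Tspan8 by 1.59 ± 0.44 (adjusted p = 0.0383). Krt7 differed by 0.11 with a 95% interval of −1.01 to 1.23, Krt19 by 0.25 with an interval of −1.15 to 1.64, Sox9 by 0.44 with an interval of −0.48 to 1.36, and Prom1 by 0.94 with an interval of −0.44 to 2.32, so none of the 4 intervals excludes a log2 change of 1. Cftr differed by 0.86 (unadjusted p = 0.0293, adjusted p = 0.151). All 3 day 21 livers lay above all day 0 livers for 5 of the 9 genes, the 4 called and Cftr, where 27.6% of all genes did so. These calls lean on single livers: 1 marker, Spp1, was still called without day 21 C, 2 without day 0 B, and none among the 10 livers without Y-linked reads, where the 4 log2 changes were between 1.25 and 1.65.

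At day 45 all 9 genes had risen, where 29.4% of all tested genes were called higher. Tspan8 rose the most, by 4.40 ± 0.44 on the log2 scale (SE, adjusted p = 8.11e-05), a 21.2-fold change on that scale. Epcam followed with 4.08 ± 0.37 (adjusted p = 5.87e-05), Spp1 with 3.87 ± 0.36 (adjusted p = 7.15e-05) and Cd24a with 3.72 ± 0.36 (adjusted p = 7.51e-05). The rises of Prom1 (3.18 ± 0.64, adjusted p = 0.00265), Krt7 (2.78 ± 0.52, adjusted p = 0.00180), Krt19 (2.68 ± 0.64, adjusted p = 0.00719), Cftr (2.49 ± 0.35, adjusted p = 4.63e-04) and Sox9 (1.84 ± 0.42, adjusted p = 0.00569) were smaller on this scale, which understates the change of a gene as low as Cftr. By the ratio of mean FPKM to day 0, Cftr at 16.6-fold stood beside Spp1 at 16.3-fold and Cd24a at 14.7-fold. The median of the 9 was 3.18 against 0.33 over all tested genes. Every day 45 liver lay above every day 0 liver for all 9 genes, as 44.8% of all genes did. The 9 calls were made whichever liver was left out, and within the livers without Y-linked reads. The sizes moved more: without day 45 B the estimate was lower for each of the 9, and that of Prom1 fell from 3.18 to 2.52.

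At days 100 and 200 all 9 genes were again higher than at day 0, where 34.6% of all genes were called higher, with log2 changes from 2.77 ± 0.47 (Sox9, adjusted p = 7.4e-04) to 5.96 ± 0.49 (Tspan8, adjusted p = 2.83e-05) and a median of 4.41 against 0.47 over all genes. For all 9, both livers lay above the day 0 range, as 57.6% of all genes did. Against day 45 no marker was called in this limma fit, where 0.078% of all genes were called higher. All 9 estimates were above 0, where the median over all genes was 0.15. An unadjusted p under 0.05 was found for 1204 of all 14104 genes and for 2 of the 9: Spp1 at 1.76 ± 0.40 (unadjusted p = 7.59e-04, adjusted p = 0.121) and Tspan8 at 1.56 ± 0.49 (unadjusted p = 0.00757, adjusted p = 0.325). Without day 45 B, the liver in which all 9 genes were highest of their group, Spp1 was called 4.61-fold higher in the late livers (adjusted p = 0.0133). In the day 200 liver all 9 genes were above the day 0 range.

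The next question was how the markers stood in livers that never had miR-122. All 9 genes were higher in the knockout than at day 0, where 22.3% of all genes were called higher, with Tspan8 at 4.07 ± 0.44 (adjusted p = 6.59e-05), Prom1 at 3.76 ± 0.64 (adjusted p = 0.00123), Spp1 at 3.64 ± 0.36 (adjusted p = 3.3e-05), Epcam at 3.54 ± 0.37 (adjusted p = 4.79e-05), and Cftr at 1.54 ± 0.35 (adjusted p = 0.00593). By the ratio of mean FPKM the smallest rise was that of Sox9 at 3.82-fold, with Cftr at 6.82-fold. The median was 2.93 against 0.11 over all genes, and no knockout liver overlapped the day 0 range for any of the 9, as was the case for 24.4% of all genes. Without knockout C the estimate of Krt19 went from 2.91 to 3.86 and that of Krt7 from 2.93 to 3.55. None of the 9 was called between the knockout and day 45, where 1.51% of all genes were called higher and 10.1% lower, and the median over all genes was −0.30. An unadjusted p under 0.05 was found for 5105 of all 14104 genes, a larger share than the 2 of the 9 markers. These 2 were Cd24a (−0.96, 95% interval −1.74 to −0.18, adjusted p = 0.0829) and Cftr (−0.95, interval −1.70 to −0.19, adjusted p = 0.0785), with an unadjusted p of 0.0201 and 0.0180. Without day 45 A both were called lower in the knockout (−1.35, adjusted p = 0.0461, and −1.33, adjusted p = 0.0430), and without knockout C Krt19 was called higher (1.18, adjusted p = 0.0306). The lack of a call thus does not show equal levels. For the other 7 genes the 95% interval of the difference held 0, with a lower end between −1.33 and −0.80 and an upper end between 0.25 and 1.96.

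**Figure D2:**
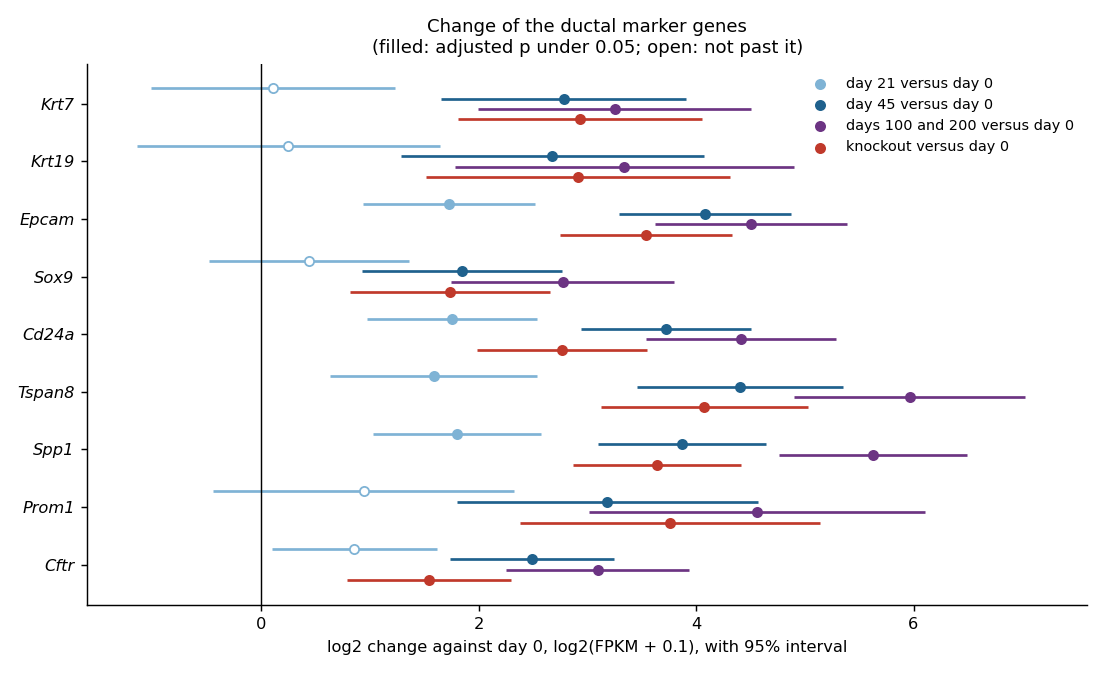
Log2 change of each gene against day 0 on the log2(FPKM + 0.1) scale, with its 95% interval from the limma fit, in the 4 comparisons with day 0. The day 21 changes of Krt7, Krt19, Sox9, Prom1 and Cftr are open circles (adjusted p not under 0.05), and every other circle is filled, up to 5.96 for Tspan8 at days 100 and 200.

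The step from day 21 to day 45 was tested directly. Of the 9, 6 rose, where 1.03% of all genes were called higher: Tspan8 by 2.82 ± 0.44 (SE, adjusted p = 0.0224), Krt7 by 2.67 ± 0.52 (adjusted p = 0.0344), Epcam by 2.35 ± 0.37 (adjusted p = 0.0224), Spp1 by 2.07 ± 0.36 (adjusted p = 0.0281), Cd24a by 1.97 ± 0.36 (adjusted p = 0.0308) and Cftr by 1.63 ± 0.35 (adjusted p = 0.0483). The estimates of Krt19 (2.43, adjusted p = 0.0804), Prom1 (2.24, adjusted p = 0.0983) and Sox9 (1.41, adjusted p = 0.111) did not pass the threshold. In these 2 groups the 3 pairs of livers with the same replicate letter had an r of 0.235, 0.208 and 0.468 between deviations from group means. Day 21 B with day 45 A, of unlike letters, had 0.224, and the remaining pairs of unlike letters were between −0.366 and 0.0543. Both C livers held Y-linked reads. These values do not show whether the letter pairs livers. With the letter as a replicate block the 6 estimates were the same and none of the 6 was called (adjusted p from 0.0669 to 0.0898), nor was any other gene. The block was a common letter effect over the lettered livers of days 0, 21 and 45 and the knockout. It was thus not a pairing of day 21 with day 45 alone. The adjusted p-values of this comparison changed with most libraries: no marker was called without day 21 A, B or C or without day 45 B or C, 3 were called without day 0 A, day 100 or day 200, and all 9 without knockout C, while the estimates of the 6 genes stayed between 1.20 and 3.30.

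The markers also differed in their proportions. The Krt19 to Krt7 ratio of FPKM was 1.42 to 1.99 at day 0, 1.66 to 1.97 at day 21, 1.47 to 1.55 at day 45, and 1.76 and 1.68 in the late livers, so the 2 keratins kept about the same proportion while both rose. The Epcam to Krt19 ratio was 0.440, 1.03 and 0.701 at day 0, 1.40, 2.26 and 2.54 at day 21, 1.85, 2.08 and 1.67 at day 45, and 1.62 and 1.52 in the late livers. Every injected liver thus had more Epcam per Krt19 than any day 0 liver, and the 2 highest values of the floxed mice were at day 21. Knockouts A and B, at 0.560 and 0.760, lay within the day 0 range, whereas knockout C stood at 3.02. The Spp1 to Krt19 ratio was likewise above the day 0 range in every injected liver, but its highest value was at day 100 and not at day 21. It was 18.7 to 44.7 at day 0, 55.5 to 106.6 at day 21, 53.4 to 71.8 at day 45, 190.9 at day 100 and 95.5 at day 200, with 21.4 and 28.8 in knockouts A and B against 159.3 in knockout C. Tspan8 per Krt19 was 0.753 to 1.38 at day 0, 8.11 and 5.35 at days 100 and 200, and 1.33, 1.92 and 5.39 in knockouts A, B and C. These ratios are descriptions of single livers and were not tested.

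**Figure D3:**
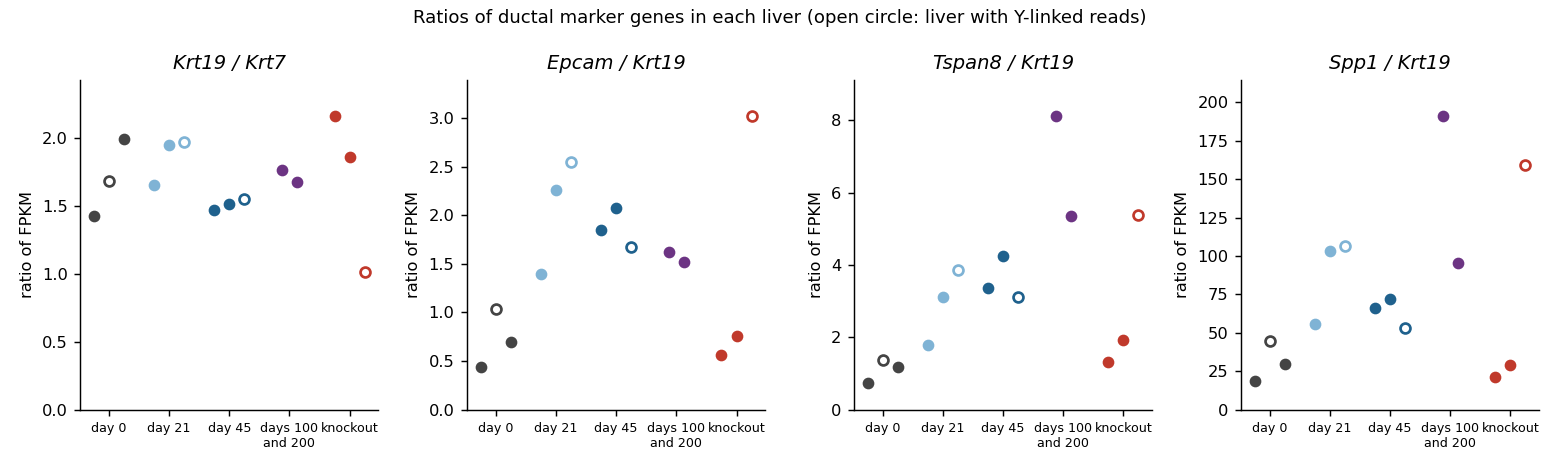
Ratio of the FPKM of 2 markers in each of the 14 livers, by group, with the 4 livers with Y-linked reads as open circles. Krt19 per Krt7 is between 1.42 and 2.16 in all livers but knockout C (1.01), while Epcam, Tspan8 and Spp1 per Krt19 are higher in every injected liver than in any day 0 liver.

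The order of the livers within a group was shared by most of the 9 genes at day 45 and in the knockouts, and not in the other groups. Day 45 B was the highest of its group for all 9 genes and day 45 A the lowest for 8, and knockout B was the highest of the knockouts for all 9. Knockout C was the lowest knockout for 6 genes, most of all for Krt19, Krt7 and Prom1. At day 0 the highest liver was A for 3 genes, B for 2 and C for 4, day 21 had the same split of 3, 2 and 4, and day 200 was above day 100 for 5 of the 9. Over the 14 livers, which share their groups and scaling, Pearson's r between 2 of the 9 genes on the log2 scale ranged from 0.781 (Krt19 with Cftr) to 0.989 (Tspan8 with Spp1), with a median of 0.919 over 36 pairs, and these values include the differences between groups. A term for the 4 livers with Y-linked reads, added to the fit after the values had been seen, was called for 1 of the 9 genes, where it was called for 1.44% of all genes: Prom1 was lower in them by 1.41 ± 0.27 on the log2 scale (adjusted p = 0.0244). The estimates for Krt19 (−0.89, adjusted p = 0.396) and Krt7 (−0.68, adjusted p = 0.417) did not pass, and those of the other 6 genes were between −0.23 and 0.10.

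Promoter letters are shown for Spp1, Tspan8 and Prom1, the 3 genes with the largest log2 changes at days 100 and 200 among those with an entry in the RefSeq promoter table. That table (GRCm38.p6, another build than the mm9 of the expression table) has entries for 6 of the 9 genes. Each line is the 250 bases before a start site, 5′ to 3′ on the strand of the gene, in lower case with matches in capitals. The matches searched on both strands were SOX (ACAAAG, reverse CTTTGT), HNF1 half-site (GTTAAT), AP-1 (TGANTCA), ETS (CCGGAA, reverse TTCCGG) and TEAD (GGAATG).
Spp1, chr5:104434861-104435110, plus strand: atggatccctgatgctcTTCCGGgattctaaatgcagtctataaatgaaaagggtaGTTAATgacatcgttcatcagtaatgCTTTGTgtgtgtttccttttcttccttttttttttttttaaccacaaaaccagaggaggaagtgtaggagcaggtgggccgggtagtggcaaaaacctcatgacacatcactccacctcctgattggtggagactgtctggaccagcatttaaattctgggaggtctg
Tspan8, chr10:115817034-115817283, plus strand: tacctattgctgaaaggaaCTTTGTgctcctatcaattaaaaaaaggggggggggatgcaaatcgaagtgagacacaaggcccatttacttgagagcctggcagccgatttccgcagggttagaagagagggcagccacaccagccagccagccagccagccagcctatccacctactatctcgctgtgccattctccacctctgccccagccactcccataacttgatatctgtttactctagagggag
Prom1, chr5:44101737-44101986, minus strand: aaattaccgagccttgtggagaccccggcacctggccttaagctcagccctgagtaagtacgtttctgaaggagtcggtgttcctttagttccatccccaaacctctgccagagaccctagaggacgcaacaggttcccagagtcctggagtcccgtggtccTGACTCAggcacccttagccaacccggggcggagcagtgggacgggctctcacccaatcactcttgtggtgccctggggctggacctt
In these lines Spp1 holds an ETS match 233 bases, an HNF1 half-site 194 bases and a SOX match 168 bases before the start, Tspan8 a SOX match at 231 bases and Prom1 an AP-1 match at 88 bases. Over 300 bases around the start, SOX letters were in 18.7% of all 32851 promoters of the table, TEAD letters in 14.7%, ETS letters in 14.9%, AP-1 letters in 7.81% and HNF1 letters in 7.1%. The 6 markers held SOX letters in 2 genes, HNF1, AP-1 and ETS letters in 1 gene each and TEAD letters in none, so no motif was shared by more than 2 of them. A match of letters is a description of the window only.

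Other genes of the duct epithelium were described from 4 lists, with 40 of 42 genes tested (Krt20 and Dmbt1 were too low). At day 21, 3 of the 40 rose (Muc1, Aqp1 and Ehf), where 8.47% of all genes were called higher. At day 45 30 rose (29.4% of all genes), at days 100 and 200 33 rose (34.6% of all genes) and in the knockout 28 rose (22.3% of all genes), and none fell in these 4 comparisons. Their median log2 changes were 0.58, 1.84, 2.61 and 1.68, against 0.12, 0.33, 0.47 and 0.11 over all genes. The count at day 21 was thus close to the share over all genes, and the later counts were above it.

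Among keratins and apical secretion genes, 9 of 12 rose at day 45. Muc1, the apical mucin, was at 0.315 to 0.549 FPKM at day 0 and 3.54, 10.7 and 6.54 at day 45 (log2 change 3.68, adjusted p = 2.91e-04), Krt23 rose by 2.64 and Ano1, a chloride channel, by 2.13. The bicarbonate exchanger Slc4a2 (0.45, adjusted p = 0.153), Wfdc2 (0.15, adjusted p = 0.880) and the bile acid transporter Slc10a2 (0.16, adjusted p = 0.905) did not pass. Among junction and surface genes 11 of 13 rose, led by the claudins Cldn4 (4.37), Cldn6 (3.78) and Cldn7 (3.78) and the membrane protease St14 (3.52), while Anxa4 (0.54, adjusted p = 0.0717) and Cldn3 (0.35, adjusted p = 0.496) did not pass. Cldn4 went from 0.0640 to 0.240 FPKM at day 0 to 1.80, 10.9 and 4.09 at day 45 and did not overlap.

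Of 9 transcription factors 6 rose at day 45: Ehf by 3.70, Sox4 by 2.89, Elf3 by 2.54, Grhl2 by 2.47, Tead2 by 2.08 and Klf5 by 1.82. Ehf, an ETS factor of epithelia, was at 0.216 to 0.337 FPKM at day 0 and already at 1.10, 1.15 and 1.02 at day 21 (log2 change 1.64, adjusted p = 0.0258). Onecut1 (1.23, adjusted p = 0.265) and Onecut2 (0.04) were among those that did not pass at day 45. Of 6 cilia and cyst genes 4 rose at day 45, with Bicc1, an RNA-binding protein of cystic disease, at 3.26, Dcdc2a, a doublecortin-domain protein of cilia, at 1.98 and Pkhd1, the fibrocystin gene, at 1.62, while Pkd1 and Pkd2 were at 0.44 and 0.64 (adjusted p = 0.213 and 0.141).

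Of 9 tested genes of the signals known from ductular reactions, none was called at day 21, 3 rose at day 45, 5 at days 100 and 200 and 2 in the knockout, where 1 fell. Of all genes, 8.47% were called higher at day 21, 29.4% at day 45, 34.6% at days 100 and 200 and 22.3% in the knockout, where 13.2% were called lower. The counts at day 45 and in the knockout were close to these shares, and that at days 100 and 200 was above its share. Only the values of single genes are given. Tnfrsf12a, the receptor of the TWEAK signal that makes ductal progenitors divide, rose by 2.24 at day 45 (adjusted p = 0.00143), the growth factor receptor Fgfr2 by 1.02 (adjusted p = 0.00717) and the Notch ligand Jag1 by 1.35 (adjusted p = 0.0418). Fgfr2 rose at days 100 and 200 as well (1.38, adjusted p = 0.00188). So did Tnfrsf12a (2.87, adjusted p = 4.3e-04), Jag1 (1.52, adjusted p = 0.0352) and Tnfsf12, the ligand of Tnfrsf12a (1.13, adjusted p = 0.0176). In the knockout Fgfr2 stood at 0.21 (adjusted p = 0.516), Tnfrsf12a (2.36, adjusted p = 0.00123) and its ligand Tnfsf12 (1.01, adjusted p = 0.0207) rose, Lgr5 fell by 1.26 (adjusted p = 0.0351), and Jag1 stood at −0.06 (adjusted p = 0.922).

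Markers of other cells moved over the same times, and their part in the levels of the 9 genes was not tested. In bulk liver RNA, more cells of a type and more RNA per cell cannot be told apart. The counts below stand beside 8.47% of all genes called higher at day 21, 29.4% at day 45, 34.6% at days 100 and 200 and 22.3% in the knockout, while 2.79% were called lower at day 45, 2.94% at days 100 and 200 and 13.2% in the knockout. The summed FPKM of 12 macrophage genes was 212.6 to 366.7 at day 0, 526.7 to 686.3 at day 21, 730.1 to 873.9 at day 45, 920 to 1075 in the late livers and 280.9 to 731.4 in the knockouts. Of the 12, 5 rose at day 21, 12 at day 45 (Itgax by 3.06 and Mpeg1 by 1.46 had the lowest adjusted p), 9 at days 100 and 200 and 6 in the knockout. Trem2, of the macrophages known to make Spp1 in injured liver, was at 0.304 to 1.14 FPKM at day 0 and 4.96 to 8.94 at day 45, where Spp1 was at 382.6 to 1259. The 9 lymphocyte genes summed to 5.23 to 10.0 FPKM at day 0, 23.8 to 39.7 at day 21 and 23.1 to 31.2 at day 45, and 8 of 9 rose at day 21, 8 at day 45 (Cd8a by 3.02 and Ptprc by 1.90 among them), 9 at days 100 and 200 and 4 in the knockout. In the same day 21 livers Krt7 was at most 1.41 FPKM and Krt19 at most 2.33 FPKM. All 9 stellate cell and fibroblast genes rose at day 45, the collagens Col3a1 by 3.27 and Col1a2 by 2.95 among them (2 rose at day 21, 9 at days 100 and 200 and 5 in the knockout), with a summed level of 140.7 to 192.1 FPKM at day 0 and 372.9 to 603.8 at day 45. Of 6 cell cycle genes 2 rose at day 21, 5 at day 45 (Top2a by 2.80 and Mki67 by 2.54 among them), 6 at days 100 and 200 and 1 in the knockout.

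Of 5 neutrophil and red cell genes tested, 2 rose at day 21, the same number at day 45, and 3 both at days 100 and 200 and in the knockout. S100a8 and S100a9, alarmins of neutrophils, rose by 2.82 and 2.64 at day 45 and by 4.03 and 3.78 in the late livers. In the knockout S100a8 rose by 3.36, S100a9 by 2.93 and the neutrophil granule gene Ngp by 3.80, while the red cell genes Hbb-b1 (0.82, adjusted p = 0.187) and Alas2 (1.65, adjusted p = 0.0876) did not pass. Of 7 endothelial genes 2 rose at day 45, Cdh5 by 1.26 and Pecam1 by 1.22, close to the share over all genes, and 2 fell in the knockout.

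None of 6 mesothelial genes was called at day 45, and 1, Gpm6a, rose at days 100 and 200 (1.96, adjusted p = 0.00703) after 1.18 at day 45 (adjusted p = 0.0556). Msln, a defining marker of mesothelium, was at 0.492 to 4.05 FPKM at day 0 and 1.37 to 1.85 at day 45, where Krt19 was at 5.78 to 17.5. Of 7 pancreas and gut genes, Cpa1, Pnlip, Prss2 and Cdx2 were at or below 0.101 FPKM in all 14 livers. Cela1 and Fabp2 of the same list were read in every liver, at 13.9 to 36.3 FPKM and 19.0 to 280.1 FPKM. Fabp2, a fatty acid binding protein of gut, fell by 1.45 at days 100 and 200 (adjusted p = 0.0184) and by 2.71 in the knockout (adjusted p = 4.71e-04). Vil1, a microvillus protein of gut and also of bile duct, was the 1 gene of the 3 tested on that list to rise at day 45 (2.56, adjusted p = 4.40e-04). It reached 16.7 to 34.4 FPKM in the knockouts against 1.16 to 2.55 at day 45. Of 11 tested hepatocyte genes G6pc fell by 2.61 at day 45 (adjusted p = 0.00508) and Cyp3a11 rose by 1.17 (adjusted p = 0.0272), while Hnf4a (−0.16) and Ttr (−0.02) did not pass. At days 100 and 200 G6pc fell by 2.22 (adjusted p = 0.0180) and Fah, an enzyme of tyrosine breakdown, by 0.74 (adjusted p = 0.0151). The summed FPKM of the 10 hepatocyte genes read in every liver, without Alb and Serpina1a, was 28685 to 31191 at day 0. It was 27605 to 28672 at day 21, 23200 to 29886 at day 45, 16354 at day 100, 25125 at day 200 and 26936 to 32393 in the knockouts. Every day 21 liver, day 45 A and B, both late livers and knockout C were below every day 0 liver.

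Outside the 9 markers, the 10 genes whose log2 levels over the 14 livers were most like the mean standardised level of the 9 markers were Egflam, Nipal2, Foxj1, 1110012J17Rik, Ddr1, Fads3, Cbx6, Glis2, Fermt1 and Ubxn10, with Pearson's r from 0.99 to 0.995. These are the top of many, since 1063 of 14095 genes had an r of at least 0.9, with a median of 0.388 over all, and the 14 livers share their groups. Foxj1, a transcription factor of motile cilia, was at 0.186 ± 0.020 FPKM (SD, n = 3) at day 0, 0.500 at day 21, 3.40 at day 45, 4.03 in the late livers and 2.09 in the knockouts on average. Egflam, a protein of the extracellular matrix, was at 0.147 ± 0.026 FPKM (SD, n = 3) at day 0 and 1.68 at day 45, and Ddr1, a collagen receptor of epithelia, went from 0.634 FPKM at day 0 to 17.7 in the late livers on average.

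In the small RNA libraries, the 5 microRNAs of the epithelial miR-200 family summed to 1066, 1235 and 311 RPM at day 0, counted without the miR-122 reads, to 1487, 3018 and 2738 at day 21, to 4108, 5808 and 4728 at day 45, and to 9205 and 8809 at days 100 and 200. The day 45 and late libraries were all above those of day 21.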

How the data were processed

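Livers were snap frozen and ground, and RNA was extracted with Trizol. For RNA-seq, the authors made poly-A libraries with a TruSeq kit, aligned read pairs with TopHat to mm9, removed ribosomal, small nucleolar and mitochondrial sequences, and deposited FPKM from Cufflinks 2.2.1 with quartile scaling. For small RNA, alignment to mouse microRNAs used Bowtie 0.12.7, and the authors deposited RPM with 1 added, which was subtracted here; reads were estimated from the steps of low values. FPKM hold no fragment numbers, so the authors' Cuffdiff test could not be run and depth is an estimate that assumes 150 bases lost to fragment length. Where a symbol stood on several rows (224 symbols), its FPKM were added up; each of the 9 genes had 1 row.

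limma 3.58.1 in R 4.3.3 (lmFit, contrasts, eBayes with trend) compared log2(FPKM + 0.1) in 1 fit of 5 groups, over the 14104 genes whose mean reached 0.1 FPKM, a minimum that keeps Cftr. Fold changes are on the log2(FPKM + 0.1) scale, which understates changes of low genes. The fit was tested on simulated data. Members, 14 further gene lists (127 genes) and tests were chosen with earlier results of these data known. Genes named from a list are those of lowest adjusted p at day 45, those that did not pass, and defining markers of other cells, except 1 gene that is counted but not reported here; the like genes are the 10 of highest Pearson's r with the mean standardised level of the 9. Alternatives were the pseudocount, the filter, 2 scalings, the groups fitted, the replicate letter as a block, and each liver left out. Between day 21 and day 45 the 3 same-letter pairs had an r of 0.235, 0.208 and 0.468 between deviations from group means. Day 21 B with day 45 A, of unlike letters, had 0.224, so these values do not show whether the letter pairs livers. The labels do not say what the letter marks, and the C livers of both days held Y-linked reads. A term for the livers with Y-linked reads, the 10 livers without them, and the floxed livers alone were added after seeing the data. Figures were made with Python 3.11.15 and matplotlib 3.10.9.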

Additional observations from a re-analysis of the deposited data

Results flagged for a closer look

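For 6 of the 9 genes the change against day 0 differed between day 21 and day 45 by the test of the difference itself, limma on log2(FPKM + 0.1). The log2 difference was 2.67 for Krt7, 2.35 for Epcam, 1.97 for Cd24a, 2.82 for Tspan8, 2.07 for Spp1 and 1.63 for Cftr, each higher in 3 of 3 day 45 livers than in any day 21 liver. None of the 6 was called with the replicate letter as a block, in a fit of the groups compared alone, or without any 1 of day 21 A, B and C and day 45 B and C. The groups hold 3 livers or fewer, so no liver was tested as an outlier.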

How the results depend on the processing

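With 2 to 3 livers per group, 9 of 9 genes were called against day 0 at day 45, at days 100 and 200 and in the knockout under every alternative that gave a value, with these exceptions: 8 in each where a mean of at least 1 FPKM was required, which Cftr did not reach, and 8 in the knockout with log2(FPKM + 1). At day 21 the number was 2 with log2(FPKM + 1), 0 among the 10 livers without Y-linked reads, and 1 to 4 with a liver left out. Cftr was called as well in a limma fit of the day 0 and day 21 livers alone (log2 change 0.86, adjusted p = 0.027). Between day 45 and day 21 it was 2 with log2(FPKM + 1), 3 with median-centred libraries, 0 in a fit of those groups alone, 0 with the replicate block, and 0 to 9 with a liver left out. Between days 100 and 200 and day 45 it was 0 to 1 with a liver left out. Between the knockout and day 45 it was 1 among the 10 livers without Y-linked reads and 0 to 2 with a liver left out. The cause was not tested. No called change of a marker reversed its direction.

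In the other comparisons not every same-letter pair had an r over 0.1 (7 of 18 pairs in all did), so the letter was not taken to pair mice. With the replicate block 3 genes were called at day 21, 9 at day 45, 9 in the knockout and 0 between the knockout and day 45. The number of all genes called moved far more than that of the 9: 1384 (455 to 2789 over the alternatives) at day 21, 4535 (2863 to 6122) at day 45, 5299 (2876 to 6951) at days 100 and 200, 5010 (1897 to 8577) in the knockout, 145 (0 to 1489) between day 45 and day 21, 15 (1 to 143) between the late livers and day 45 and 1634 (107 to 6635) between the knockout and day 45. Both scalings put the change from day 0 to day 45 of the miR-200 family up and that of miR-122 down: 2.49 on the log2 scale per read other than miR-122 and 4.03 per read of any kind for the family, and −6.31 as a share of all reads and −7.93 per other read for miR-122. Single values at day 0 below 0.1 FPKM (Cftr) rest on few fragments.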
